A study of Mus musculus with 8 samples.

Results

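The liver of Tob1 null mice was profiled in normal adults and 24 h after partial hepatectomy, and the change between those times is described here across all genes on the array. The members are the 4 arrays labelled Tob1 null, of 8 in the series: 2 at 0 h and 2 at 24 h, chosen by the genotype and time in their titles with no use of measured values. All animals were male C57BL/6 mice aged 7 to 10 weeks. Null animals at 0 h were normal adults without surgery, and null animals at 24 h had the median and left lateral lobes tied off under ketamine and xylazine. The other 4 arrays are wild type animals of the same strain, sex, age and times, 2 per group. Each array carries pooled RNA of 3 different animals, so an array is the replicate, the spread between animals within a pool was not seen, and p-values measure the spread between pools. No sham-operated group was used here, so the effects of anaesthesia, surgery and loss of liver mass cannot be told apart. The sources used here do not give the time of day of tissue collection.

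Tob1 is an antiproliferative protein of the Tob and Btg family, whose members recruit the CCR4-NOT deadenylase complex to messenger RNAs and so promote the shortening of their tails. After partial hepatectomy the remaining hepatocytes, which are normally quiescent, pass from G0 through G1 into DNA synthesis and mitosis within days, while the liver keeps up secretion and metabolism and mounts an acute phase response. Cytokines of the IL-6 family, ligands of the EGF receptor and hepatocyte growth factor drive this progression, and cyclin D1, E2F factors and the MCM helicase are its usual landmarks. The series is entitled as a study of Tob1 as a constitutive repressor of liver regeneration.

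Values are log2 hybridisation signals after quantile normalisation, called levels below. A difference is the mean level at 24 h minus that at 0 h (n = 2 arrays against 2), with its standard error from limma. That error, and the p-values, rest on the spread within groups pooled over all 8 arrays, wild type included. One unit is a factor of 2 in signal. A gene is said to have risen or fallen where limma's Benjamini-Hochberg adjusted p over all 14450 genes tested was under 0.05, and all adjusted p-values below are of this kind. In bulk tissue, fewer cells of a type and less RNA per cell cannot be told apart.

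The genotype labels and the sex label were checked first, and each check gave a value against a label. The brighter of 2 Tob1 probe sets read 11.10 and 11.03 in the null-labelled arrays at 0 h, 10.66 and 10.58 at 24 h, 10.46 and 10.53 in wild type at 0 h, and 9.87 and 10.20 at 24 h. The null-labelled arrays were thus the higher at each time, and the sources used here do not say whether this probe set lies inside the deleted stretch, so it may check nothing. The dimmer probe set read 2.65 and 4.06, then 2.78 and 3.83, in the null-labelled arrays, and between 4.02 and 5.19 in wild type. Genotypes below are therefore as labelled.

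One array stood apart, the first null-labelled array at 0 h. Xist, the RNA that coats the inactive X chromosome in female cells, read 7.94 there and between 3.00 and 4.48 in the other 7 arrays. A second Xist probe set read 6.45 there and between 0.49 and 3.40 elsewhere, and the remaining one 4.70 there and between 2.60 and 4.61 elsewhere. Among genes known for higher expression in female mouse liver, Cyp2b13 read 7.68 there and at most 4.24 elsewhere, Cyp2b9 read 8.09 there and at most 6.02 elsewhere, and Sult3a1 read 9.24 there against 7.08 in the first null-labelled array of the 24 h group and at most 3.47 in the rest. Of 11 female-biased genes 8 (72.7%) had their highest level of all 8 arrays in that pool, against 15.3% of all genes tested, and all 12 male-biased genes were lower in it than in the second array at 0 h, against 7418 of 14450 genes. Genes of the Y chromosome were also measured there: Eif2s3y read 8.02, against 8.53 to 9.51 in the others, Uty read 6.27, against 6.72 to 7.25, and Kdm5d read 5.76, within the 5.53 to 6.66 of the others. Xist and the Y-linked genes were chosen after their values were seen. What part this pool has in the results was not tested beyond leaving it out. Without it 33 genes were called in place of 2121, and with the second array at 0 h left out instead 30 were called, so that the count fell alike with either left out. Each called gene had both 24 h arrays on 1 side of both 0 h arrays, so leaving out 1 array could hardly turn its direction. That 2114 of 2116 called genes kept their direction without the first array therefore says nothing about this pool. Without the first array 7 called genes shrank by more than 1.5 times, and without the second 12 did.

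**Figure D1:**
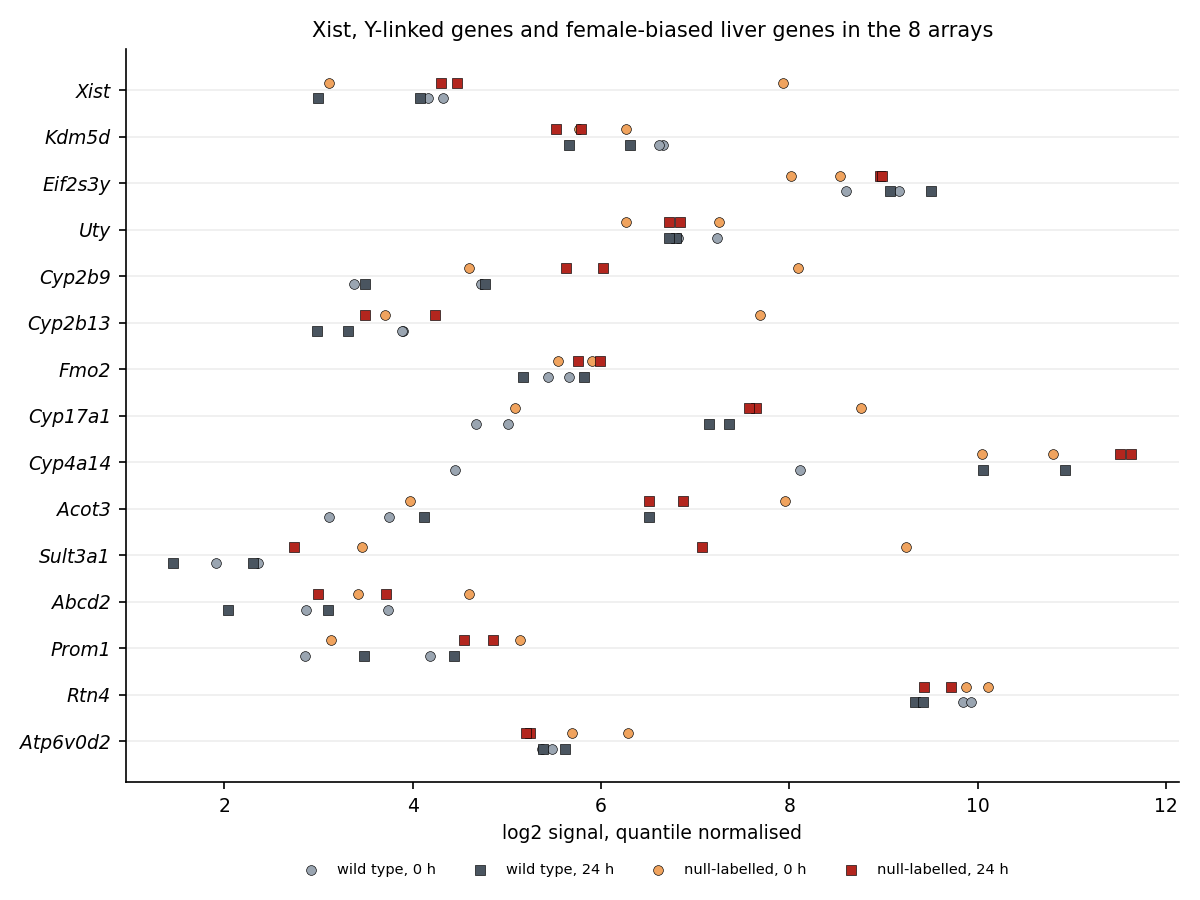
Levels (log2 signal, horizontal axis) of Xist, Y-linked and sex-biased liver genes in each of the 8 arrays, with symbols for genotype and time as the key gives them. The first null-labelled array at 0 h lies apart for Xist (7.94), Cyp2b13 (7.68) and Sult3a1 (9.24).

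The null-labelled liver changed over a wide set of genes by 24 h. Of 14450 genes, 2121 passed the test, which is 14.7%: 1076 rose (7.45%) and 1045 fell (7.23%). The median difference over all genes was -0.04, and the median standard error was 0.20. The smallest called difference was 0.43 in size. The 24 h arrays lay wholly above or below the 0 h arrays for each gene called; over all genes, both 24 h arrays were above both 0 h arrays in 29.7% and below in 33.3%. Centring each array on its median in place of quantile normalisation gave 1245 rises and 469 falls, a share of rises of 72.6% against 50.7%, and a median over all genes of 0.12. Counts in a gene group are to be read against 7.45% and 7.23%. The ratio of 3' to 5' signal of the actin control probes, a sign of RNA integrity, was 1.57 ± 0.03 on the log2 scale at 0 h and 1.27 ± 0.07 at 24 h (SD, n = 2), and for Gapdh it was 0.52 ± 0.02 and 0.16 ± 0.12; the part of RNA quality in the results was not tested.

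**Figure D2:**
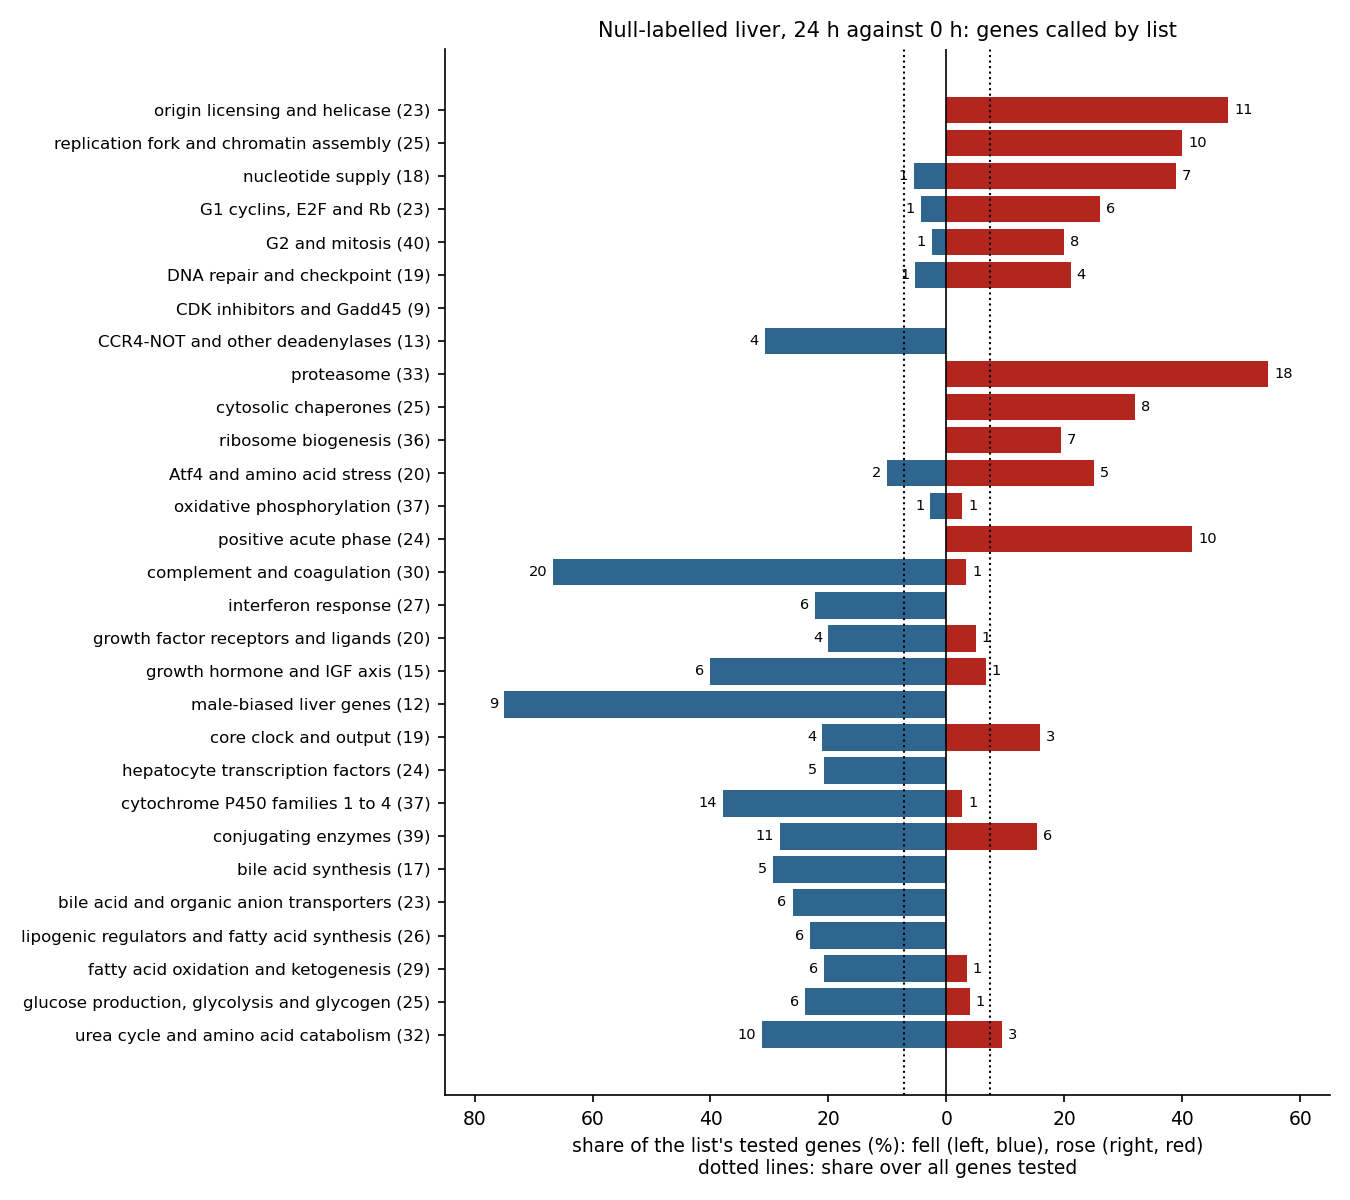
Share of each gene group's tested members (percent, horizontal axis, number tested in brackets) that fell (blue, to the left) or rose (red, to the right) in the null-labelled liver at 24 h, with the number of genes at the end of each bar. Dotted lines mark the shares over all genes, 7.23% lower and 7.45% higher; origin licensing (11 of 23) and the proteasome (18 of 33) reach far to the right, and male-biased genes (9 of 12) and complement and coagulation (20 of 30) far to the left.

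A small core of genes was called in each of the 8 fits that left out 1 array in turn. It held 17 genes, of which 11 rose and 6 fell. Of the 17, 15 were also called in the same direction in wild type, against 867 of all 2121 called genes. The core was picked by its calls in fits that share most arrays, wild type among them, so that overlap is no independent result. The rises were the acute phase and defence proteins Lcn2 (6.50), Saa2 (6.00), Saa1 (3.89), Orm2 (3.24), Orm3 (2.90) and Apcs (2.02), the secreted antagonist Cer1 (5.69), the interleukin-22 receptor chain Il22ra1 (4.72), the fatty acid binding protein Fabp7 (2.67), the apolipoprotein Apoa4 (2.49) and the macrophage protein Cd68 (2.02). The falls were the uridine phosphorylase Upp2 (-4.95), the clock output factor Dbp (-3.60), Afmid of tryptophan breakdown (-3.17), the carbonic anhydrase Car1 (-2.48), the peptidase Mme (-2.44) and the sulfotransferase Sult2a8 (-2.05). Cer1 and Il22ra1 started below the limit of 3.60 used to filter dim genes, so the sizes of their rises are uncertain. Under other settings the rise was as low as 2.44 for Cer1 and 1.80 for Il22ra1. Dbp and Cd68 were the 2 members not called in wild type. Fabp7, Car1, Mme and Sult2a8 are named because they belong to this set, after their values were seen.

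Many DNA replication genes rose, with the highest group medians of those described. Of 23 measured genes of origin licensing and the replicative helicase, 11 rose and none fell, with a median difference of 1.62, and of 25 genes of the replication fork and chromatin assembly 10 rose and none fell, with a median of 0.80. In wild type 3 of the 23 and none of the 25 rose, against a background of 4.13% of genes, with medians of 0.69 and 0.48. The Mcm genes encode the helicase that opens origins, and several of their promoters, like that of the mitotic kinase gene Cdk1, carry binding sites of E2F, the factor released when Rb is phosphorylated in late G1. The promoters of Mcm5, Mcm6 and Cdk1, genes whose levels are given next, are shown with E2F motif matches in capitals (RefSeq, GRCm38.p6, 250 bases before to 50 after the start site, in the direction of transcription). They lie at chr8:75109259-75109558 on the plus strand, chr1:128359656-128359955 on the minus strand and chr10:69352863-69353162 on the minus strand.
Mcm5: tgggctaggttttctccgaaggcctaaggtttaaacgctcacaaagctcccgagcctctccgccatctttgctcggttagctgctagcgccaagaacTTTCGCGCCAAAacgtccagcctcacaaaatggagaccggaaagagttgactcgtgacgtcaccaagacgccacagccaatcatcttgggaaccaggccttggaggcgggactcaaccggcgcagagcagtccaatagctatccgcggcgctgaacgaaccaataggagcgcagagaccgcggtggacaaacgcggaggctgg
Mcm6: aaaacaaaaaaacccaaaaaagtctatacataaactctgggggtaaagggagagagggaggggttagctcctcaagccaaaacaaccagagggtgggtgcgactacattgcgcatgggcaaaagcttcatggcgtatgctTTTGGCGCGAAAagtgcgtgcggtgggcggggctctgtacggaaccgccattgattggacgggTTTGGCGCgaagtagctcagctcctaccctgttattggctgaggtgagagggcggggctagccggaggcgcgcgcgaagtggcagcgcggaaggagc
Cdk1: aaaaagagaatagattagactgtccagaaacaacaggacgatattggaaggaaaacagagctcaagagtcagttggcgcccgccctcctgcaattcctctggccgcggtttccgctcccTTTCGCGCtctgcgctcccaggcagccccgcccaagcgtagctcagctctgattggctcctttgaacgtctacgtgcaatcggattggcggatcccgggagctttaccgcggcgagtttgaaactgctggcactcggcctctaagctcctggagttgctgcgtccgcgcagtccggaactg
The letters searched, on both strands, were TTTGGCGC, TTTGCCGC, TTTCGCGC and TTTCCCGC. Matches began at -153 and -149 from the start site of Mcm5, where they overlap, at -110, -106 and -47 in Mcm6, of which the first pair overlap, and at -131 in Cdk1. Of the 19 replication genes that rose and have a promoter entry, 10 (52.6%) held a match, as did 7 of 21 (33.3%) that did not pass. The share was 4.23% of 11555 genes tested with an entry, 7.7% of those called higher and 3.62% of those called lower, and 2.26% of all 32851 promoter windows. A match is a description of letters and not a measured site.

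Mcm5 read 4.18 and 4.04 at 0 h and 9.08 and 8.03 at 24 h, a rise of 4.45 ± 0.51 (adjusted p = 0.0114). Mcm6 read 4.04 and 4.55, then 9.03 and 7.67, a rise of 4.06 ± 0.58 (adjusted p = 0.0158). Mcm2 (3.39) and Mcm4 (3.60), of the same ring, rose too. For each of these helicase genes both arrays at 24 h lay far above both at 0 h, and the first array at 24 h was the higher. The origin recognition subunit Orc6 read 5.07 and 5.01, then 7.02 and 6.70, a rise of 1.82 ± 0.20. Pcna, the sliding clamp, read 8.60 and 8.48, then 10.32 and 9.95, a rise of 1.60 ± 0.19 (adjusted p = 0.0114), against 8.71 and 8.76, then 8.99 and 9.35, in wild type. Neither genotype's arrays overlap between times for Pcna, and the null-labelled response was the larger by 1.16 ± 0.27, with an adjusted p of 0.531 for that difference. The clamp loaders Rfc4 (2.91) and Rfc3 (1.52) and the ligase Lig1 (2.40), which seals nicks on the lagging strand, rose as well. Uhrf1, which carries DNA methylation through replication, read 0.68 and 2.12 at 0 h, below the limit of 3.60 used to filter dim genes, and 7.67 and 5.90 at 24 h, at least 9.1-fold higher. Without either null-labelled array at 0 h, no gene in these 2 groups was called, although leaving out the first gave medians of 1.14 and 0.70. With the first or the second array at 24 h left out the licensing group had 6 or 7 rises and the fork group 1 or 6. Leaving out 1 wild type array at 0 h gave 7 for licensing and 5 or 4 for the fork.

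**Figure D3:**
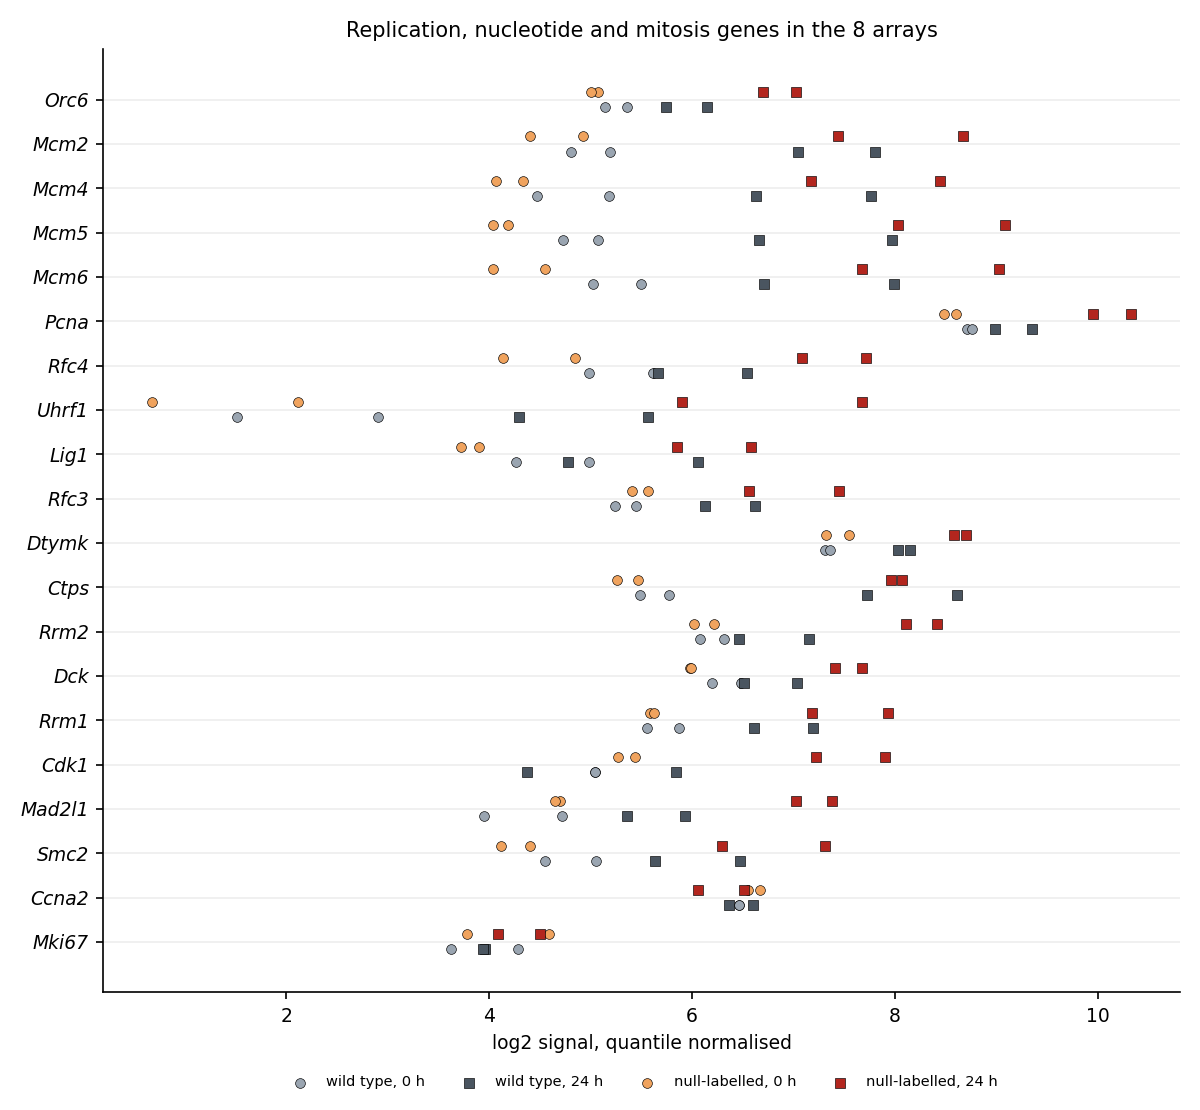
Levels (log2 signal) of replication and mitosis genes in each of the 8 arrays, with symbols for genotype and time as in the key. Both null-labelled arrays at 24 h lie above both at 0 h for Mcm5, Mcm6, Pcna and Cdk1, while wild type Cdk1 at 24 h spans 4.38 to 5.84.

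Of 18 genes that supply DNA precursors, 7 rose and 1 fell, with a median of 0.57. Rrm2, the regulated subunit of ribonucleotide reductase, read 6.02 and 6.22 at 0 h and 8.42 and 8.10 at 24 h, a rise of 2.14 ± 0.26 (adjusted p = 0.0121), against a difference of 0.61 in wild type. The partner subunit Rrm1 rose by 1.95, the CTP synthase Ctps by 2.65, the deoxycytidine kinase Dck by 1.55 and the thymidylate kinase Dtymk by 1.21. None of these genes was called without 1 of the null-labelled arrays at 0 h; 6 rises were called without either array at 24 h, and the median was 0.34 without the first.

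Among 23 regulators of G1, 6 rose and 1 fell. Tfdp1, the DNA-binding partner of E2F factors, read 6.76 and 6.61, then 7.87 and 7.79, a rise of 1.14 ± 0.12 (adjusted p = 0.0112). Cyclin E2 (Ccne2, 2.47), the ubiquitin ligase subunit Skp2 (1.55), which targets CDK inhibitors, and Cdk4 (0.59) rose, and Rbl2, the Rb relative p130 of quiescent cells, fell by 0.92. Cyclin D1 (Ccnd1), which starts G1 progression, read 8.73 and 7.53 at 0 h and 9.94 and 9.40 at 24 h, a difference of 1.54 ± 0.45 that did not pass (adjusted p = 0.0708). Its arrays do not overlap between times, but the pair at 0 h lie far apart. Of 9 CDK inhibitor and Gadd45 genes none passed (median -0.38), and Cdkn1a, which encodes p21, read 6.76 and 8.13, then 7.08 and 8.23, with overlapping groups. The G1 rises numbered 2 and 3 without the first and second arrays at 24 h, 1 without either wild type array at 0 h, and none without either null-labelled array at 0 h.

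Mitotic genes rose in part. Of 40 genes of G2 and mitosis 8 rose and 1 fell, with a median of 0.37. In wild type 2 rose and 1 fell (background 4.13% and 5.08%), with a median of 0.00. Cdk1, the kinase that starts mitosis, read 5.27 and 5.43 at 0 h and 7.90 and 7.22 at 24 h, a rise of 2.21 ± 0.48 (adjusted p = 0.0358). In wild type it read 5.05 and 5.04, then 4.38 and 5.84, so that the wild type arrays overlap between times. The difference between the Cdk1 responses did not pass. The spindle checkpoint gene Mad2l1 (2.53), the condensin subunit Smc2 (2.54), the CDK subunit Cks1b (1.06) and the ubiquitin conjugating enzyme Ube2c (1.31) rose as well. Securin (Pttg1) fell by 0.72 on its brightest probe set, but its probe sets carry opposed calls. Other usual marks of cycling cells did not pass: cyclin A2 (Ccna2) read 6.66 and 6.55, then 6.05 and 6.51, and Mki67 read 3.78 and 4.58, then 4.50 and 4.08. The rises came to 1 and 2 without the first and second arrays at 24 h, where the median was 0.14 and 0.44, 5 without either wild type array at 0 h, and none without either null-labelled array at 0 h.

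Of 19 genes of DNA repair and the replication checkpoint, 4 rose and 1 fell. Tipin, which with Timeless protects stalled forks, read 5.95 and 6.02, then 8.06 and 7.67, a rise of 1.87 ± 0.16 (adjusted p = 0.00917). Timeless was at least 4.57-fold and the checkpoint kinase Chek1 at least 6.29-fold higher at 24 h, both from below the limit at 0 h, and the uracil glycosylase Ung rose by 1.95. Atm, the kinase that answers double-strand breaks, fell by 0.84. Among 13 targets of p53 the pleckstrin domain gene Phlda3 (1.37) and the ubiquitin ligase Mdm2 (0.66) rose and none fell. None of these was called without 1 of the null-labelled arrays at 0 h. Repair rises numbered 3 and 4 without the first and second arrays at 24 h. Among p53 targets 1 rise was called without the first array at 24 h or either wild type array at 0 h; without the second array at 24 h no p53 target was called. The p53 median, 0.11, lay between -0.03 and 0.29 with 1 array left out, the ends coming without the second and the first array at 24 h.

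None of the 4 measured Tob and Btg genes passed in the null-labelled liver. Tob2, the closest relative of Tob1, read 8.79 and 8.63 at 0 h and 7.69 and 8.14 at 24 h, a difference of -0.80 ± 0.24 (adjusted p = 0.0741), and Tob1 itself differed by -0.44 (adjusted p = 0.0937). For both, the arrays at 24 h lay below those at 0 h. Btg1 (-0.02) and Btg2 (0.58) had arrays that overlap between times. Of 13 genes of CCR4-NOT and the other deadenylases, the machinery these proteins recruit, 4 fell and none rose, with a median of -0.33. The catalytic subunit Cnot6l read 8.46 and 8.46, then 7.66 and 7.75, a fall of 0.76 ± 0.15 (adjusted p = 0.0302). Pan3 of the PAN2-PAN3 deadenylase fell by 0.72, Cnot4 by 0.56 and Cnot3 by 0.77. Cnot7, the catalytic subunit that Tob proteins bind, read 9.02 and 9.04, then 8.63 and 8.76, a difference of -0.33 that did not pass (adjusted p = 0.101). In wild type none of the 13 was called, against 9.21% of all genes. The difference between responses had an unadjusted limma p under 0.05 in 3 of the 13, against 8.61% of all genes. Pan3 (0.0349) and Cnot4 (0.0427) were among the 3, and no gene passed after adjustment. Few of these falls held in other settings: no gene was called with array medians in place of quantiles (median -0.12), without either null-labelled array at 0 h, without the second at 24 h or without either wild type array at 0 h, and 1 was called without the first at 24 h.

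Of 19 genes of IL-6 family and related receptor signalling 4 rose and 1 fell, with a median of 0.08. In wild type 6 rose and 1 fell (background 4.13% and 5.08%), with a median of 0.48. Il22ra1, the chain that makes hepatocytes responsive to interleukin-22, read 0.52 and 1.06 at 0 h, below the limit, and 5.21 and 5.81 at 24 h, at least 3.76-fold higher (adjusted p = 0.00565). In wild type it read 3.61 and 3.73, then 5.46 and 5.65, so the genotypes lay close at 24 h and apart at 0 h. The wild type levels at 0 h were themselves close to the limit, so the size of the gap at 0 h is uncertain. The shared receptor chain Il6st (gp130, 0.66), the oncostatin receptor Osmr (1.93) and the TNF receptor Tnfrsf1a (0.73) rose, and the interleukin-1 receptor chain Il1rap fell by 1.04. Socs3, the feedback inhibitor induced by this pathway, read 7.55 and 7.44, then 7.68 and 8.61, which did not pass. Of 15 immediate early genes Dusp1, a MAP kinase phosphatase, fell by 2.47, Fosl2 fell by 1.18 and none rose; Jun (-0.16) and Myc (0.21) did not pass. Without 1 null-labelled array at 0 h, 1 rise was called among the receptors, that of Il22ra1, and no immediate early gene; without either array at 24 h 1 fall was called in that group, and likewise without either wild type array at 0 h. Without the second array at 24 h or either wild type array at 0 h, 1 receptor rise and 1 fall were called, and without the first at 24 h there were 2 rises and 3 falls.

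The acute phase response held calls in each fit with 1 array left out. Of 24 positive acute phase genes 10 rose and none fell, with 6 called without either null-labelled array at 0 h. Lcn2, an iron-sequestering lipocalin, read 6.62 and 5.92 at 0 h and 12.67 and 12.87 at 24 h, a rise of 6.50 ± 0.28 (adjusted p = 0.00522). Apcs, serum amyloid P, read 9.59 and 9.76, then 11.78 and 11.61, a rise of 2.02 ± 0.14, and in wild type the difference was 2.04. Both sets of arrays stand clearly apart between times. Albumin (Alb), a negative acute phase protein, read 13.53 and 13.56, then 13.56 and 13.58, and did not pass. Among 11 carriers and negative acute phase genes, 3 fell: Azgp1 by 0.80, Fetub, a fetuin, by 0.49 and Serpina6, the corticosteroid carrier, by 1.36. Of these 3, 1 was called without either array at 24 h or either wild type array at 0 h, and none without either null-labelled array at 0 h; the median of the 11, -0.10, was 0.22 with array medians and -0.18 without the second array at 24 h.

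Most complement and coagulation genes fell. Of 30, 20 fell and 1 rose, a share of falls well above the 7.23% over all genes, with a median of -0.66; 14 fell in wild type (background 5.08%), with a median of -0.53. Complement C2 read 9.38 and 9.53, then 8.20 and 8.24, a fall of 1.24 ± 0.13 (adjusted p = 0.0112). Factor V (F5), the cofactor of the prothrombinase, fell by 1.09 ± 0.14, while wild type differed by -0.37. Factor VII (F7) fell by 1.44, C6 of the membrane attack complex by 1.36, and the protease C1ra of the classical pathway by 0.72. Both arrays at 24 h lay below both at 0 h for each of these. The falls numbered 14 and 4 without the first and second arrays at 24 h, 11 without either wild type array at 0 h, and none without either null-labelled array at 0 h (medians -0.65 and -0.68).

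Of 27 interferon response genes 6 fell and none rose, with a median of -0.44 and 25 negative differences. Irf7, the master factor of the response, read 8.53 and 8.69, then 7.76 and 7.28, a fall of 1.09 ± 0.22 (adjusted p = 0.0302), and the immunoproteasome subunits Psmb8 (-0.92) and Psmb10 (-0.72) and the antiviral genes Rsad2 (-0.77) and Ifit1 (-0.80) fell. The group was called nowhere without either null-labelled array at 0 h, the second at 24 h or either wild type array at 0 h; 4 falls were called without the first at 24 h, and with array medians 1 rose and 1 fell (median -0.34).

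Of 20 growth factor receptor and ligand genes 4 fell and 1 rose. Egfr, the receptor of EGF and TGF-alpha on hepatocytes, read 11.34 and 11.04 at 0 h and 9.32 and 8.66 at 24 h, a fall of 2.20 ± 0.37 (adjusted p = 0.0212). Wild type Egfr read 10.64 and 11.26, then 11.13 and 10.35, with overlapping groups. The 2 responses differed by -1.99 ± 0.52, which did not pass (adjusted p = 0.543). The heregulin receptor Erbb3 fell by 1.20, the insulin receptor Insr by 0.93 and Hgfac, the protease that activates hepatocyte growth factor, by 1.22. Erbb2 rose from below the limit, at least 1.13-fold. Met, the receptor of hepatocyte growth factor, read 9.22 and 9.20, then 8.88 and 8.84, a difference of -0.35 that did not pass (adjusted p = 0.0953). The 4 falls were also called without the first array at 24 h; 1 was called without the second, 3 without either wild type array at 0 h and none without either null-labelled array at 0 h.

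Of 30 genes of activin, TGF-beta and BMP signalling, whose ligands restrain hepatocyte growth, 4 fell and 1 rose. Smad4, the common mediator, read 8.87 and 8.84, then 7.95 and 7.93, a fall of 0.92 ± 0.12 (adjusted p = 0.0136), and the activin receptor Acvr2a fell by 0.72. Fst, follistatin, which binds activin, read 2.63 and 3.59 at 0 h and 5.90 and 6.48 at 24 h, at least 6.04-fold higher. Inhbb (-0.62) and Smad3 (-0.70) fell on their brightest probe sets, and their direction turned with other choices of probe set. The median, -0.13, was 0.05 with array medians, 0.05 and -0.22 without the first and second arrays at 0 h, and 0.22 and -0.04 without the first and second at 24 h. Falls numbered 3 and 1 without the first and second arrays at 24 h, 2 and 1 without the first and second wild type arrays at 0 h, and none without either null-labelled array at 0 h.

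Of 15 growth hormone and IGF genes 6 fell and 1 rose, with a median of -0.63, and 1 fell in wild type (background 5.08%). Socs2, a feedback inhibitor and target of growth hormone signalling, read 8.97 and 8.49 at 0 h and 4.72 and 5.42 at 24 h, a fall of 3.67 ± 0.61 (adjusted p = 0.0212). In wild type it read 6.49 and 8.21, then 6.97 and 6.14, and those groups overlap. The difference between the Socs2 responses did not pass. Cish, another target of the same pathway, read 7.16 and 7.34, then 5.53 and 6.00, a fall of 1.48 ± 0.21, whereas wild type read 6.54 and 6.32, then 7.38 and 7.09. The difference between the Cish responses was -2.29 ± 0.29 (adjusted p = 0.301; 0.0276 with a trended robust prior). Stat5b, the factor that carries the signal, fell by 1.11 on its brightest probe set, and Igfbp3 fell by 0.93. Igfbp1, an IGF-binding protein raised in fasting and injury, read 8.82 and 8.88, then 10.75 and 10.56, a rise of 1.80 ± 0.19, and was lower at both times than wild type, at 11.36 and 11.55, then 12.36 and 11.89. The receptor Ghr (-1.08, adjusted p = 0.0733) and Igf1 (0.31, adjusted p = 0.153) did not pass. Falls numbered 3 and 2 without the first and second arrays at 24 h, 4 without either wild type array at 0 h and none without either null-labelled array at 0 h.

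Genes with higher expression in male liver, which follow the male pattern of growth hormone pulses, fell. Of 12, 9 fell and none rose, with all 12 differences negative and a median of -1.20. In wild type 8 fell (background 5.08%), with a median of -1.51. The organic anion transporter Slco1a1 read 10.18 and 10.59, then 8.66 and 8.59, a fall of 1.76 ± 0.17 (adjusted p = 0.0109). The glucuronyl transferase Ugt2b1 (-1.22), the complement regulator Susd4 (-1.35), Ugt2b38 (-1.63) and Cyp2u1 (-1.19) fell as well. These genes were lower in the first array at 0 h than in the second, and the median without the first was -1.37, with 1 gene called. Without the second none was called and the median was -1.06, and without either array at 24 h or either wild type array at 0 h 4 falls were called. None of the 11 female-biased genes was called; their median was -0.42, against 0.70 with 1 rise without the first array at 0 h, -1.14 with 1 fall without the second, and -0.15 and 0.04 without the first and second at 24 h.

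Of 19 clock genes 3 rose and 4 fell, and the median of -0.25 became 0.02 with array medians and -0.12 without the first array at 24 h. Dbp, an output factor, read 9.84 and 9.27 at 0 h and 6.01 and 5.90 at 24 h, a fall of 3.60 ± 0.21 (adjusted p = 0.006), and in wild type read 7.38 and 7.44, then 6.41 and 6.66. The null-labelled arrays at 0 h were above, and those at 24 h below, the wild type arrays of the same time, and the responses differed by -2.73 ± 0.30 (adjusted p = 0.301; 0.0112 with a trended robust prior). Nr1d1, Rev-erb alpha, which represses Arntl, read 8.10 and 7.80, then 4.23 and 3.82, a fall of 3.92, and Nr1d2 fell by 1.18. The repressors Cry1 (1.75) and Per2 (1.44) and the activator Arntl (Bmal1), at 4.79 and 5.45, then 6.64 and 6.31, rose. Wild type Arntl read 6.43 and 5.91, then 6.18 and 6.38. The part of collection time in these values was not tested. Leaving out either null-labelled array at 0 h kept 1 fall, that of Dbp; without the first and second arrays at 24 h 3 and 2 falls and no rises were called, and without either wild type array at 0 h 3 falls and 1 rise.

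Transcription factors of hepatocyte identity fell or did not pass: 5 of 24 fell and none rose, with a median of -0.44. Cebpa, which holds hepatocytes in quiescence, read 10.85 and 10.75, then 9.13 and 8.52, a fall of 1.97 ± 0.26 (adjusted p = 0.0138). Onecut1 (HNF6), itself a growth hormone target, read 9.0 and 8.09, then 6.03 and 5.54, a fall of 2.76 ± 0.58, and in wild type read 6.52 and 7.87, then 6.33 and 7.31. For Onecut1 the null-labelled arrays separate by time, as those of each called gene do, and the wild type arrays overlap. No gene passed the test of the difference between responses, so this contrast is no sign of a difference between genotypes. Foxa2 fell by 0.83, Hnf4a by 0.52 and the glucocorticoid receptor Nr3c1 by 0.67 on its brightest probe set; with the first probe set by ID the median of the group was 0.02, and without the second array at 24 h it was -0.29. Falls numbered 4 and 1 without the first and second arrays at 24 h, 3 without either wild type array at 0 h and none without either null-labelled array at 0 h; with array medians 2 fell and 1 rose.

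**Figure D4:**
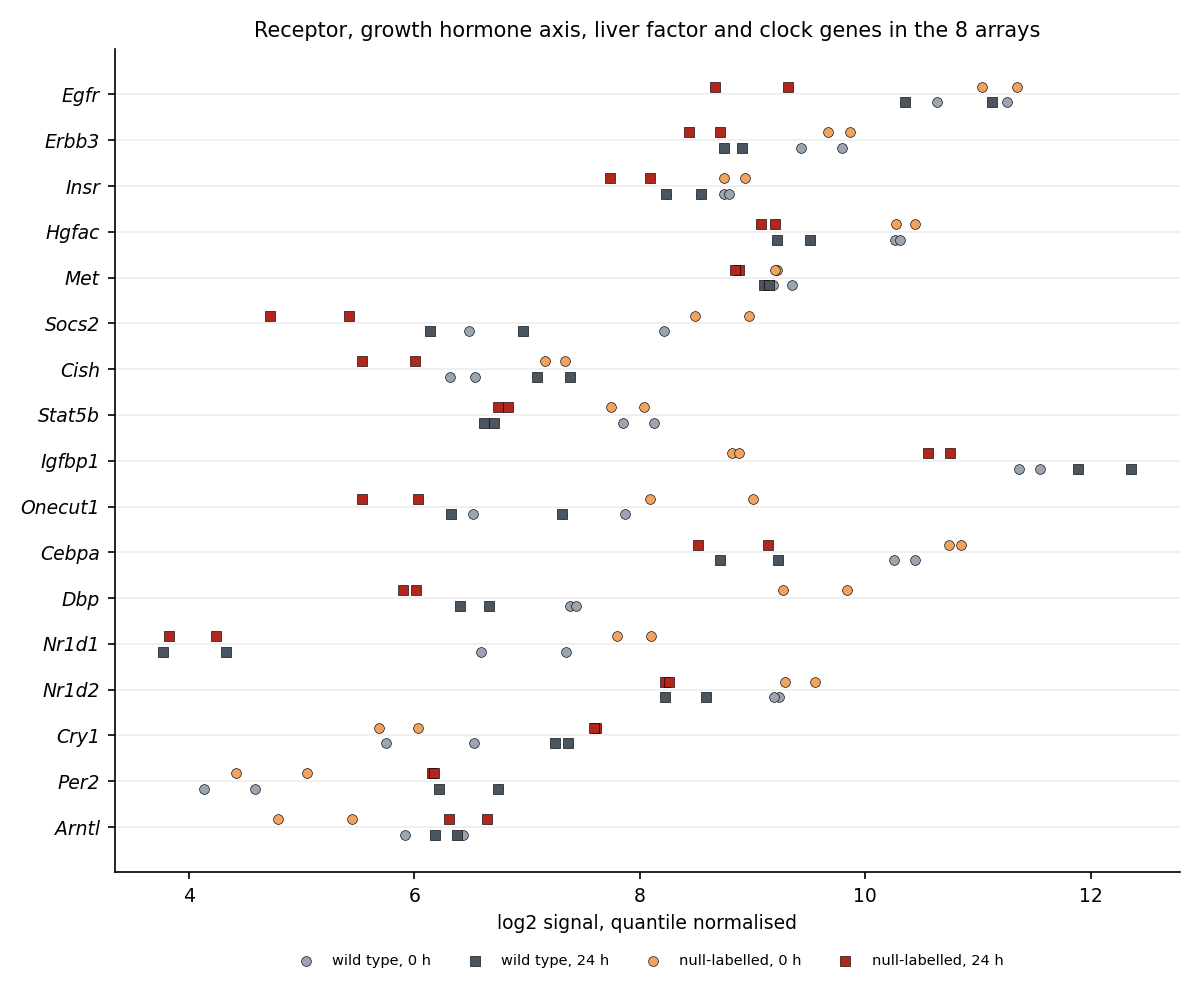
Levels (log2 signal) of growth factor receptor, growth hormone axis, liver factor and clock genes in each of the 8 arrays, circles for 0 h and squares for 24 h. Null-labelled squares lie left of null-labelled circles for Egfr, Socs2, Cish and Dbp. Wild type Egfr and Socs2 overlap between times, and wild type Cish lies to the right at 24 h. Null-labelled arrays of each called gene separate by time, and no gene passed the test of the difference between responses.

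All 33 measured proteasome genes had a positive difference, 18 rose and none fell, with a median of 0.47. In wild type 9 rose (background 4.13%), with a median of 0.39. Psmd14, the lid's deubiquitinase, read 9.08 and 9.22, then 10.34 and 10.15, a rise of 1.10 ± 0.13 (adjusted p = 0.0114). The lid subunits Psmd7 (0.87) and Psmd12 (0.65) and the base ATPase Psmc4 (0.86) rose, as did Psmd13 (0.79), whose probe sets carry opposed calls. Each rise is below 2-fold apart from that of Psmd14. Counts were 8 and 2 without the first and second arrays at 24 h, 5 without either wild type array at 0 h and none without either null-labelled array at 0 h (medians 0.45 and 0.48).

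Of 25 cytosolic chaperone genes 8 rose and none fell, and the 5 named were subunits of the CCT ring, which folds actin and tubulin: Cct6a (0.69), Cct3 (0.67), Cct5 (0.66), Cct8 (0.56) and Cct7 (0.50). Cct6a read 10.68 and 10.66, then 11.35 and 11.38. Of 36 ribosome biogenesis genes 7 rose and none fell, with 34 positive differences and a median of 0.49. In wild type 8 rose (background 4.13%), with a median of 0.66. Polr1e, a subunit of RNA polymerase I, read 4.76 and 5.15, then 6.35 and 6.90, a rise of 1.67 ± 0.24 (adjusted p = 0.0159), and the ribonucleoprotein Nhp2 rose by 1.19. Of 20 endoplasmic reticulum chaperones Manf (0.91) and Sdf2l1 (0.83) rose and Herpud1 fell by 1.13; Hspa5 (BiP, 0.56, adjusted p = 0.0557) did not pass. No gene of these 3 groups was called without 1 of the null-labelled arrays at 0 h. The chaperone rises came to 1 without either array at 24 h or either wild type array at 0 h, and the ribosome rises to 3 without the first array at 24 h, none without the second, and 2 without either wild type array at 0 h. In the endoplasmic reticulum 1 and 2 rises were called without the first and second arrays at 24 h, and no fall.

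Among 20 targets of Atf4 and amino acid stress, 5 rose and 2 fell, and the risers make serine and amino acids: Psat1 read 4.27 and 4.09, then 6.55 and 7.13, a rise of 2.66 ± 0.27 (adjusted p = 0.011), and Psph (1.37) and the asparagine synthetase Asns (1.21) rose with it, as did the amino acid carrier subunit Slc3a2 (0.82) and the folate enzyme Mthfd2 (0.80). Chac1, which degrades glutathione, fell by 2.26, so the targets did not move as one. No gene of this group was called without either null-labelled array at 0 h, 3 and 2 rises were called without the first and second at 24 h, and 3 rises and 1 fall without either wild type array at 0 h. Of 37 oxidative phosphorylation genes, the electron carrier Cycs rose by 0.58 and the complex II subunit Sdha fell by 0.74; at most 1 of them was called with any array left out of the null-labelled or wild type 0 h groups.

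Of 37 cytochrome P450 genes, many of them drug-metabolising, 14 fell and 1 rose, with a median of -0.58. In wild type 13 fell (background 5.08%). Cyp2c23, an arachidonate epoxygenase, read 11.35 and 11.35, then 9.94 and 9.78, a fall of 1.49 ± 0.15 (adjusted p = 0.011), Cyp2f2 fell by 1.29 and Cyp4f14 by 1.57. Cyp2b10, a target of the receptor CAR, read 9.65 and 9.85, then 11.05 and 11.09, a rise of 1.32. The most abundant forms lay nearer to their starting level and did not pass, Cyp2e1 at -0.38 (adjusted p = 0.08) and Cyp3a11 at -0.15. Near-identical Cyp2 and Cyp4 copies can share probes, so single members of these families are uncertain. Falls numbered 6 and 4 without the first and second arrays at 24 h, 5 without either wild type array at 0 h, and none and 1 without the first and second at 0 h.

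Among 39 conjugating enzymes 11 fell and 6 rose. Sult1e1, the oestrogen sulfotransferase, read 3.17 and 3.40 at 0 h, below the limit, and 7.75 and 9.89 at 24 h, at least 37.3-fold higher, with the arrays at 24 h far from each other. Nnmt, which methylates nicotinamide, rose by 1.47, and the glutathione transferase Gstm7 fell by 1.05. Gstm3, another member of that family, read 10.95 and 11.04, then 12.46 and 12.30, a rise of 1.39 ± 0.16, whereas wild type read 10.34 and 10.60, then 9.68 and 9.93. The Gstm3 responses differed by 2.05 ± 0.22 (adjusted p = 0.301; 0.0112 with a trended robust prior), and its close copies in the Gstm cluster make the gene uncertain. Of 13 Nrf2 targets and regulators 4 rose and none fell: Srxn1 (2.48), the haem oxygenase Hmox1 (1.37), Nfe2l2 (0.81), which encodes Nrf2 itself, and Gsr (0.76). Differences were negative for 7 of the 13, so the group did not rise together. Its median was -0.08, and 0.39 with the mean of probe sets. Without either null-labelled array at 0 h neither group held a call; conjugating enzymes gave 4 rises and 6 falls, then 3 and 3, without the first and second arrays at 24 h, and 3 and 6 without either wild type array at 0 h, and Nrf2 targets gave 4, 1 and 2 rises in the same order.

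Of 17 bile acid synthesis genes 5 fell, of 23 transporters of bile acids and organic anions 6 fell, and none of either rose; 8 of the 23 transporter differences were positive. Cyp8b1, the sterol 12-alpha-hydroxylase, read 10.25 and 10.81, then 8.20 and 7.07, a fall of 2.90 ± 0.49 (adjusted p = 0.0219), and Cyp27a1 (-0.75), Akr1d1 (-1.30) and the bile acid ligase Slc27a5 (-0.81) fell. Cyp7a1, the rate-limiting enzyme, read 9.44 and 8.66, then 8.58 and 6.45, and did not pass (adjusted p = 0.294). The uptake carrier Slc10a1 (NTCP) fell by 0.85, the canalicular pump Abcc2 by 0.68 and the sterol exporter Abcg8 by 1.85. Without the first and second arrays at 24 h synthesis gave 3 and 1 falls and transport 2 and 1, without either wild type array at 0 h 3 and 2, and with a null-labelled array at 0 h left out synthesis had no call and transport at most 1.

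Of 26 lipogenic genes 6 fell and none rose, and both main regulators were among the falls. Srebf1, the insulin-responsive factor, read 9.88 and 9.54, then 7.82 and 7.06, a fall of 2.27 ± 0.27 (adjusted p = 0.0121), and the glucose-responsive factor Mlxipl (ChREBP) fell by 2.30. Lpin1, which makes diacylglycerol, read 10.51 and 10.41, then 7.99 and 7.21, a fall of 2.86 ± 0.47, with a wild type difference of -0.52. Their main enzyme targets did not pass: Fasn differed by -0.66 (adjusted p = 0.213) and Scd1 by -1.28 (adjusted p = 0.192). In fatty acid oxidation 6 of 29 genes fell and 1 rose, where 5 rose and none fell in wild type (background 4.13% and 5.08%). The group as a whole was not lower: 16 differences were positive and 13 negative, with a median of 0.11, against 0.25 in wild type. Cpt1a, which admits fatty acids to mitochondria, read 10.01 and 9.89, then 9.28 and 9.19, a fall of 0.71 ± 0.13, while wild type read 10.19 and 10.00, then 10.85 and 10.94. The arrays of the 2 genotypes move in opposite directions with no overlap, as they did for 641 of 14450 genes tested. Cpt1a was also picked by its p-value for the difference, which favours such a pattern. Its responses differed by -1.51 ± 0.18 (limma adjusted p = 0.301, and 0.0112 with a trended robust prior). Ppara, the factor above this pathway, fell by 1.44, and Acaa1a (-0.70) and Acaa1b (-0.90), peroxisomal thiolases, fell. Lipid storage and uptake genes gave 5 rises and 4 falls of 24, with Cidec, a droplet protein, at least 11.6-fold higher, Fabp4 higher by 2.19 and the fatty acid transporter Slc27a2 lower by 0.80. Lipogenic falls numbered 6 and 1 without the first and second arrays at 24 h and 3 without either wild type array at 0 h, and oxidation falls 2, none and 2; storage and uptake gave 7 rises and 3 falls, then 1 and none, and 4 and 1. None of the 3 groups held a call without either null-labelled array at 0 h.

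Of 25 genes of glucose metabolism 6 fell and 1 rose. Gys2, the liver glycogen synthase, read 9.88 and 9.76, then 8.59 and 8.63, a fall of 1.22 ± 0.12 (adjusted p = 0.0109), and in wild type 9.54 and 9.59, then 9.66 and 9.55. Its null-labelled arrays separate by time, as those of each called gene do, and its wild type arrays overlap. The Gys2 responses differed by -1.26, which did not pass with limma (adjusted p = 0.0237 with a trended robust prior). The glycogen phosphorylase Pygl fell by 1.28, the pyruvate dehydrogenase kinases Pdk2 by 1.97 and Pdk1 by 1.04, and Pkm, the pyruvate kinase of proliferating cells, rose by 1.12. The gluconeogenic genes G6pc (-0.42) and Pck1 (-0.26) did not pass. Of 32 genes of the urea cycle and amino acid catabolism 10 fell and 3 rose, with Haao of tryptophan breakdown (-1.63), Ddah1 (-1.61), Agxt (-1.23) and Fah of tyrosine breakdown (-1.10) among the falls, while Cps1, the first urea cycle enzyme, did not pass (-0.39, adjusted p = 0.109). The glucose falls numbered 5 and 3 without the first and second arrays at 24 h, the amino acid falls 7 and 4, and none was called without either null-labelled array at 0 h; the 3 amino acid rises came to 1 and none without the first and second at 24 h.

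Marker lists of the cell types a liver sample can hold were short, so counts are to be read as shares against 14.7% called over all genes. The share called was 28.6% for Kupffer cell and macrophage, 25% for cholangiocyte, progenitor and fetal, and 18.2% for lymphocyte markers. It was 10% for hepatocyte, 6.67% for endothelial and 13.3% for stellate markers. Each remaining list held 6 tested genes or fewer. Hepatocyte markers summed on the linear scale to 84950 and 84450 at 0 h and 81760 and 84510 at 24 h, and 1 of 10 fell, Hnf4a. Of 14 Kupffer cell and macrophage markers 3 rose and 1 fell, with summed levels of 3232 and 3220, then 3990 and 3645. The scavenger receptor Marco read 4.12 and 3.25, then 7.85 and 7.78, a rise of 4.13 ± 0.29, much as in wild type (4.0). Under other settings its rise was as low as 1.34, and Marco is not in the core of 17 genes given above. Cd68, a lysosomal glycoprotein of macrophages, read 4.97 and 4.64, then 6.80 and 6.84, a rise of 2.02 ± 0.14 (adjusted p = 0.00691), against 5.77 and 5.70, then 6.24 and 6.22, in wild type. Csf1r, the receptor for macrophage survival, fell by 0.76, so the list did not move together. Afp, the fetal serum protein, read 5.37 and 5.15, then 8.12 and 8.85, a rise of 3.23 ± 0.34, and with the keratins Krt18 (1.58) and Krt8 (1.62), which hepatocytes also make, it gave 3 rises of 12 in the cholangiocyte, progenitor and fetal list; that list summed to 2077 and 2199, then 5456 and 7669. No neutrophil marker of 6 passed, and their sum was 217 and 210.6, then 284.7 and 380.4. Lymphocyte and stellate lists gave 2 falls each, of 11 and 15. The adipocyte list summed to 10970 and 11370, then 3276 and 4363, and in wild type to 11400 and 11000, then 4552 and 3774. That sum is nearly all Car3, a carbonic anhydrase that liver also makes, which fell by 1.82, while Fabp4 rose and Retn did not pass. The exocrine pancreas list summed to 607.7 and 672, then 328.3 and 402.6, with Cela1 (-1.16) the 1 fall of 4, and in wild type to 756.1 and 552.7, then 374.2 and 324.9. Both sums were thus lower at 24 h in either genotype, with no overlap. The mesothelium list summed to 171.4 and 188.8, then 110.6 and 114.3, with Krt5 (-1.59) the 1 fall of 4. Of 15 endothelial markers Pecam1 (1.01) rose, with sums of 1758 and 2223, then 2066 and 2274. Of 5 erythroid markers Tfrc rose and Alas2 (-1.17) fell, with sums of 1436 and 1660, then 1718 and 1466, and none of 3 muscle markers passed, at 28.8 and 32.3, then 49.3 and 46.3. Without either null-labelled array at 0 h Marco and Cd68 were still called and no marker of the other lists was, and without any 1 of the arrays at 24 h or the wild type arrays at 0 h 1 of the 3 rises with Afp was called. The part of cell composition in the results was not tested.

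The pair of null-labelled pools at 24 h differed from each other in several gene groups. The first was above the second in 17 of 23 licensing genes (median gap 0.85), 20 of 25 fork genes (0.40) and 29 of 40 G2 and mitosis genes (0.43), where over all genes it was above in 6906 of 14450 (median gap -0.02). It was likewise above in 20 of 22 cholesterol genes (0.39), 20 of 26 lipogenic genes (0.41), 17 of 20 endoplasmic reticulum chaperones (0.36) and 25 of 30 complement and coagulation genes (0.15). In the other direction it was above in 2 of 15 immediate early genes (-0.60) and 4 of 36 ribosome biogenesis genes (-0.28). Tnfrsf12a, the receptor of the growth signal TWEAK, read 8.84 in the first pool and 10.79 in the second. In wild type at 24 h the first pool was above the second in 4 of 23 licensing, 3 of 25 fork, 3 of 22 cholesterol (-0.78), 10 of 26 lipogenic, 7 of 20 chaperone and 10 of 30 complement genes but in 14 of 15 immediate early and 31 of 36 ribosome biogenesis genes, and Tnfrsf12a read 11.08 and 9.21. In each genotype, then, the pool higher in replication genes was the lower in immediate early genes. At 2 pools a group this is a description of 4 arrays.

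The null-labelled response was set against that of wild type last. Of the 2121 genes called, 867 were called in the same direction in wild type, 3 in the opposite direction and 1251 were not called there; wild type had 1331 calls (9.21%). No gene passed the test of the difference between responses with limma, where 1244 (8.61%) had an unadjusted p under 0.05, and 10 passed with a trended robust prior. A call in 1 genotype alone is therefore no sign of a difference. The 10 smallest p-values for the difference, all with an adjusted p of 0.301, belonged to Il21r, Gstm3, Dbp, Pramel32, Cbx7, Cpt1a, Apoa4, Cish, Il22ra1 and Gys2. Apoa4, an apolipoprotein of triglyceride-rich particles, read 9.78 and 9.31, then 12.04 and 12.02, in the null-labelled liver and 8.33 and 8.43, then 12.98 and 12.84, in wild type, so it rose in both, by 2.49 and 4.53. Cbx7, a Polycomb subunit, read 4.70 and 4.71, then 3.34 and 3.57, at least 2.16-fold lower, against 4.09 and 4.11, then 4.39 and 4.32, in wild type. Il21r read 2.61 and 2.77, then 4.0 and 3.85, against 4.02 and 4.44, then 2.39 and 2.62, levels close to the limit of 3.60 in both genotypes. For Dbp, Il22ra1 and Cish the genotypes were already apart at 0 h, which enters the difference as much as the levels at 24 h do. For Il22ra1 the levels at 0 h were below the limit of 3.60 or close to it, so the size of that gap is uncertain.

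**Figure D5:**
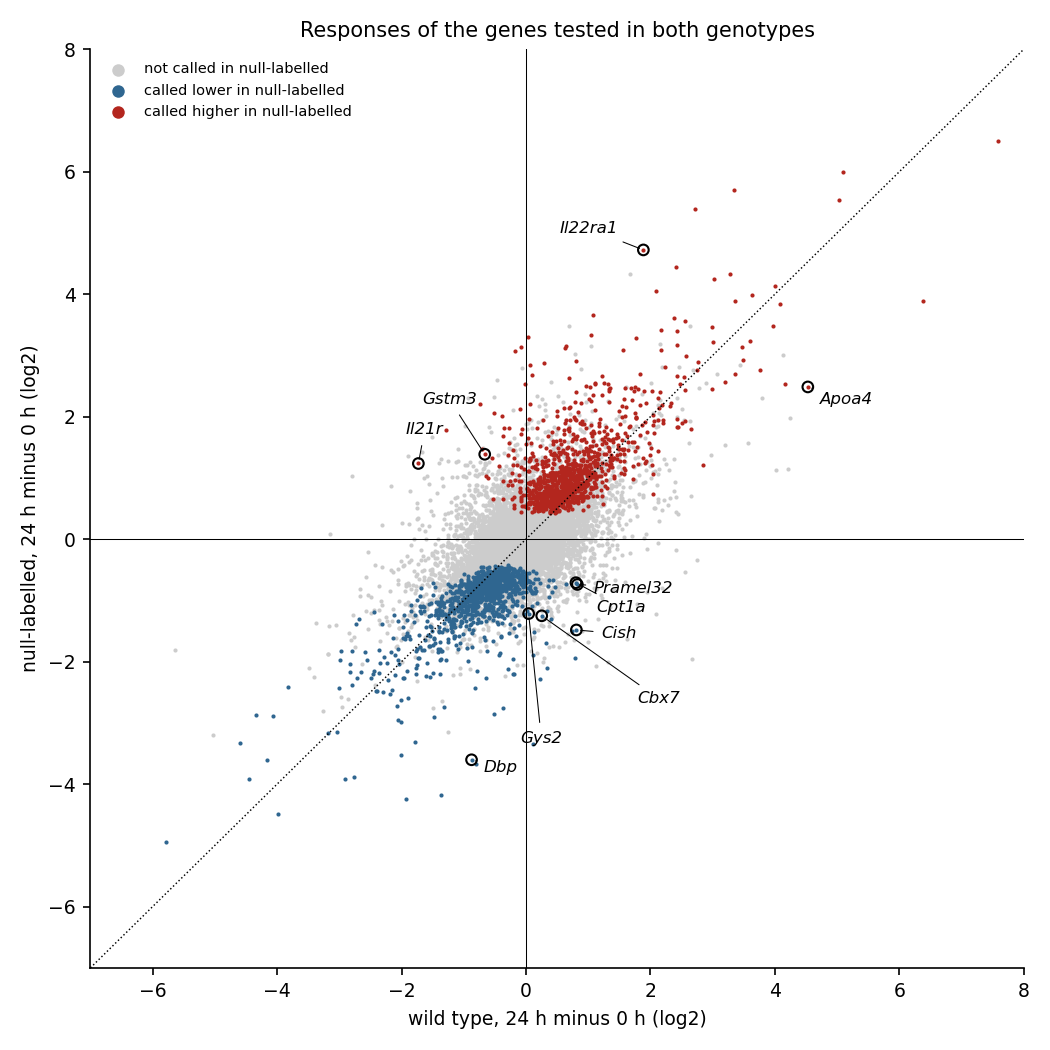
Difference between 24 h and 0 h (log2) of each gene tested in wild type (horizontal axis) and in null-labelled liver (vertical axis); red and blue points were called higher or lower in the null-labelled liver, and the dotted line marks equal responses. The circled genes have the 10 smallest p-values for the difference, such as Cpt1a at -0.71 in null-labelled and 0.80 in wild type liver.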

How the data were processed

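The submitters deposited a series matrix of Affymetrix values that the authors had already summarised per probe set and put on a log2 scale; no source used here names the algorithm. Of 45101 probe sets, 64 were controls, 34945 had 1 gene symbol, 932 several and 9160 none; those with 1 symbol were used. The arrays' 25th percentiles spanned 0.62, above a tolerance of 0.1, so values were quantile normalised. Genes above an array's 40th percentile in at least 2 of 8 arrays were kept, each by its brightest probe set on average. Group means were fitted with limma 3.58.1 in R 4.3.3 (residual df 4), with Benjamini-Hochberg adjustment over 14450 genes; the scripts were tested on simulated data. A fold marked "at least" sets the brighter group against the filter limit of 3.60. Promoters came from RefSeq.

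Named genes are the 12 largest called rises and falls with group means above the limit, the 6 largest with 1 group below it, up to 5 called members of each list plus key members, and the 10 smallest p-values for the difference; clone names were skipped. The members and lists were chosen with earlier results of these data known. The number of arrays, 2 a group, limits precision.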

Additional observations from a re-analysis of the deposited data

How the results depend on the processing

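Having 2 arrays a group with 4 residual degrees of freedom limits how many genes pass. Leaving out 1 array at a time gave 30 to 1804 called genes in place of 2121, with 23 to 909 higher and 7 to 895 lower; the lowest counts, 30 and 33, came with the second or the first null-labelled array of the 0 h group left out, and 3602 and 3336 genes then had an unadjusted p under 0.05. A fit to the 4 null arrays alone called 0 genes with limma (0 higher and 0 lower), with 4333 at an unadjusted p under 0.05. Without the filter 1026 were called (540 higher, 486 lower), and with the filter at the 60th percentile 1599 were lower. A trended robust prior called 3204 (1618 lower) and 10 for the difference between responses. Centring on array medians left 469 lower, a split of 72.6% higher. The deposited values without further normalisation (2145), the mean of probe sets (1646), the first probe set (1791), array weights (1801) and, chosen after seeing the data, 16 added on the linear scale (2936) stayed within 1.5 times.

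A replicate block called 903 (465 higher, 438 lower). Deviations of same-numbered arrays correlated at 0.051 between the null groups and from -0.197 to -0.00517 between the others, so the numbers were not taken to pair the arrays, and no crossed pairing was run.

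Of the named genes' values under other settings, 3301 kept side and direction, 1321 kept direction but missed the threshold, 27 came to pass it and 34 turned direction. Of these 34, 23 belong to 12 genes that were not called, and turned with the choice of probe set (7), with 1 array left out (11) or in other settings (5), none passing the threshold. The other 11, of which 1 passed the threshold in the turned direction, belong to 8 called genes and turned with the choice of probe set alone. With the mean of probe sets they were Pttg1 0.17, Inhbb 0.78, Smad3 0.16, Psmd13 -0.0798 and Scap 0.00384, and with the first probe set Pttg1 1.47, Inhbb 2.19, Smad3 0.50, Stat5b 0.13, Tfrc -0.40 and Nr3c1 0.12. For arrays, the number of arrays and dim signal near the limit of 3.60 bound what can be seen.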

Other observations

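Beside the genes described above, a few others set the first null-labelled array at 0 h apart, chosen after their values were seen. Sult2a2, a sulfotransferase with higher expression in female mouse liver, read 9.90 there, 7.50 in the first null-labelled array of the 24 h group, and between 1.74 and 3.08 in the other 6 arrays. The organic anion carrier Slc22a26 read 6.78 there and at most 4.61 in the others. Sult3a1 showed the same pair of high arrays as Sult2a2. Xist read 4.30 in the first null-labelled array of the 24 h group, within the range of the other arrays. No explanation was tested.

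Iron handling genes gave 3 rises and 2 falls of 20. The transferrin receptor Tfrc read 8.70 and 8.65 at 0 h and 10.19 and 9.56 at 24 h on its brightest probe set, a rise of 1.20, and the hemojuvelin gene Hjv rose by 1.0, while Ireb2, an iron-responsive RNA-binding protein, fell by 0.72. Hamp, which encodes hepcidin, read 12.99 and 12.68, then 11.82 and 13.24, and did not pass. None of the 20 was called without either null-labelled array at 0 h.

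Of the zonal markers 18.2% of pericentral and 25% of periportal genes were called, against 14.7% over all genes. Of 22 pericentral genes 1 rose and 3 fell, among them the ammonium transporter Rhbg (-1.24) and the Wnt co-receptor Lgr4 (-1.07). Of 12 periportal genes 3 fell, among them the immunoglobulin transporter Pigr (-1.52) and Etnppl (-2.42). Both lists kept no call without either null-labelled array at 0 h.

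Of 22 cholesterol genes, the sterol sensor partner Insig2 rose by 1.77, Scap fell by 1.07 on its brightest probe set, and the group's median was 0.56 in null-labelled and -0.42 in wild type liver. The pools at 24 h lay apart over these genes: the median gap between them was 0.39 in null-labelled liver (first above second in 20 of 22) and -0.78 in wild type (3 of 22). The null-labelled median was 0.34 and 0.74 without the first and second arrays at 24 h, and 0.63 and 0.40 without the first and second at 0 h. The 1 rise and 1 fall were called without the first array at 24 h, no gene was called without the second or without either array at 0 h, and without either wild type array at 0 h 1 fall was. The median difference was not tested.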
